A study of Mus musculus with 2 samples.

Results

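The CC chemokines described here were 10 genes, Ccl2, Ccl3, Ccl4, Ccl5, Ccl6, Ccl7, Ccl8, Ccl9, Ccl11 and Ccl19, of the 55573 genes listed for RNA sequencing of the mouse mesenteric artery. They were taken by matching the mouse Ensembl gene identifiers in the read count and FPKM tables to these symbols, and all 10 were found. The family was chosen by its read counts and FPKM in these same libraries, so the values are given as a description and not as a test. Both libraries came from wild-type C57BL/6 mice aged 10 weeks, and each pooled the arteries of 2 mice. The control library was from arteries kept in 5 mM K+ and the depolarized library from arteries in 60 mM K+, with 60 min given for both. Solutions of both groups contained tetrodotoxin, a blocker of nerve Na+ channels. High K+ depolarizes the membrane of the smooth muscle cell, and the comparison asked which transcripts differed after a sustained depolarization of the arterial wall. The supplementary methods described the control tissue as the distal side of ligated arteries, removed before the remainder was perfused with 60 mM K+, whereas the labels gave the same time in solution for both. By the supplementary account the tissue was incubated without perfusion before the control was removed, whereas the main text had both groups perfused. Artery segment, time in solution, perfusion and K+ therefore cannot be told apart.

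CC chemokines are small secreted proteins named for a pair of adjacent cysteines near the amino end. They bind heparan sulphate on the surfaces of cells and act through G protein-coupled receptors of the Ccr family to draw leukocytes along a gradient. Ccl2, Ccl7 and Ccl8 are monocyte chemoattractants, Ccl11 (eotaxin) attracts eosinophils, Ccl3, Ccl4 and Ccl5 attract macrophages and T cells, Ccl6 and Ccl9 are rodent chemokines made largely by myeloid cells, and Ccl19 guides dendritic cells and T cells through Ccr7. In the arterial wall, smooth muscle cells, endothelial cells, adventitial fibroblasts and resident macrophages are all known sources of chemokines.

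The monocyte chemoattractants Ccl2 and Ccl7 carried most of the difference between the libraries. Ccl2 had 7.90-fold and Ccl7 6.36-fold more normalised reads in the depolarized library. Ccl3 went from 1 read to 22 reads, and Ccl11 was higher by 0.81 on the log2 scale. Ccl6, Ccl9 and Ccl19 had nearly the same number of reads in both libraries, and Ccl4, Ccl5 and Ccl8 were close to the limit of detection. With 1 library in each condition there was no replicate check within the sequencing data, and no p-value is given. The paper also measured Ccl2 and Ccl7 by qPCR in several mice per group and reported both as up-regulated. It reported that blocking Cav1.2, CaMKK or CaMK, or disrupting caveolae, reversed the rise of both. After removal of the endothelium it found gene induction comparable to that of control arteries. The 2 libraries described here hold none of these conditions. Each interval below is an exact 95% interval that covers counting error only. PCR reads without molecular identifiers are not independent molecules, so the spread may be wider than these intervals. In bulk tissue, fewer cells of a type and less RNA per cell cannot be told apart.

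The libraries held 10480918 reads (5 mM K+) and 11289598 reads (60 mM K+) assigned to genes. Each log2(fold-change) is that of 60 mM K+ over 5 mM K+ after TMM scaling, which centres the bulk of the genes on 0. A gene was counted as past the fold where its log2(fold-change) lay above 1 or below -1, with at least 10 reads over both libraries. Of the 14829 genes with so many reads, 822 (5.54%) lay above and 869 (5.86%) below, so that 48.6% of the genes past the fold were higher. Scaling by total counts instead lowered every log2(fold-change) by 0.21 and reduced that share to 31.9%. Among the CC chemokines, 8 had at least 10 reads and 2 (Ccl4 and Ccl5) had fewer. Of those 8, Ccl2, Ccl3, Ccl7 and Ccl8 lay above the fold, 0 lay below, and their median log2(fold-change) was 1.04 beside a median of -0.0047 for all genes with 10 reads. Nothing can be read from this count against the background, because the same contrast was in view when the family was selected. Ccl3 and Ccl8 reached 10 reads only through the depolarized library. For Ccl2, Ccl3 and Ccl7 the lower end of the interval also lay above the fold, as it did for 1.77% of the genes tested.

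**Figure D1:**
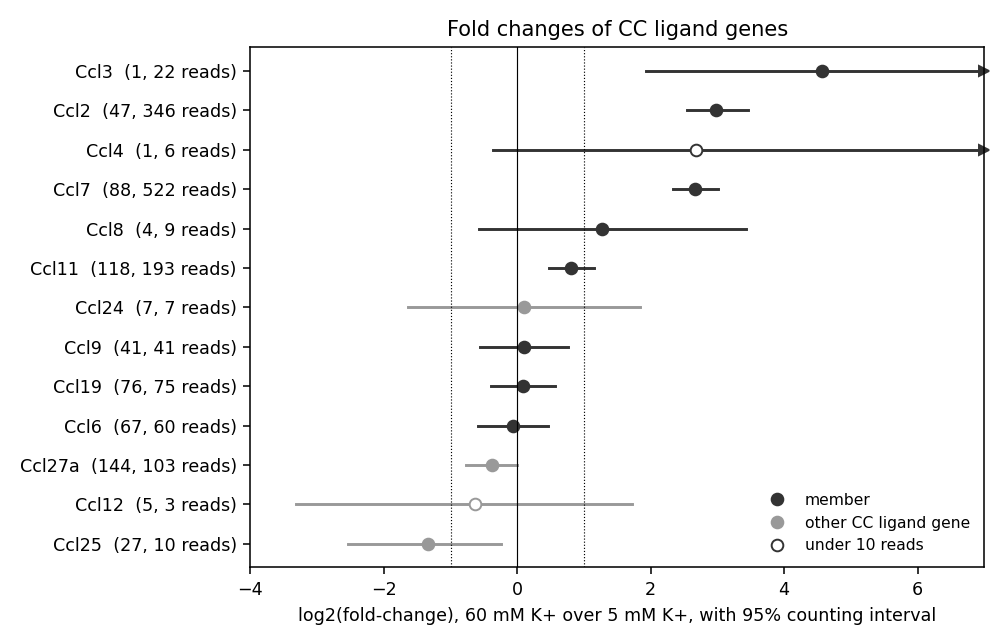
The log2(fold-change) of each CC chemokine (black) and of other CC ligands (grey), 60 mM K+ over 5 mM K+, with points for the estimates (open under 10 reads), lines for exact 95% counting intervals of 1 library per condition, arrowheads where these run past the axis, and the control and depolarized reads in parentheses. Ccl2 (2.98), Ccl7 (2.67) and Ccl3 (4.56) lie with their whole interval above the dotted line at 1, while the intervals of Ccl6, Ccl9 and Ccl19 hold 0.

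Ccl2, which recruits monocytes through Ccr2, had 47 reads in the control and 346 in the depolarized library. The difference was 2.98 on the log2 scale (2.54 to 3.45), which placed it 61st from the top among the 14829 genes. Per transcript length, its level was 4.70 FPKM (3.45 to 6.24) in the control library and 32.1 FPKM (28.8 to 35.7) in the depolarized library, and these intervals did not overlap. Ccl7, a further ligand of Ccr2 that also binds Ccr1 and Ccr3, had 88 control and 522 depolarized reads. Its difference of 2.67 (2.34 to 3.01) on the log2 scale ranked 84th. Its level was 10.5 FPKM (8.41 to 12.9) in 5 mM K+ and 57.7 FPKM (52.9 to 62.9) in 60 mM K+. This was the highest level of the family in 60 mM K+, whereas in 5 mM K+ Ccl11 was at nearly the same level (10.4 FPKM). The log2(fold-change) of Ccl2 exceeded that of Ccl7 by 0.31, with an interval of -0.26 to 0.89 that held 0. Ccl8, another monocyte chemoattractant, had only 4 and 9 reads. Its log2(fold-change) of 1.27 (-0.57 to 3.42) was past the fold, but the interval held 0 and a difference was not detectable at this depth. Among all genes with 10 to under 50 reads over both libraries, as for Ccl8 and Ccl3, 14.1% lay above the fold and 22.6% below. Among those with 200 to under 1000 reads, as for Ccl2, Ccl7 and Ccl11, these shares were 2.5% and 0.5%.

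Ccl11, the eotaxin that acts through Ccr3, had 118 reads in the control and 193 in the depolarized library. The log2(fold-change) was 0.81 (0.47 to 1.15), so the interval lay above 0 while the estimate stayed within the fold. Per length, Ccl11 stood above Ccl2 in the control library and below it in the depolarized library. For each read of Ccl11 there were 0.398 reads of Ccl2 and 0.746 reads of Ccl7 in 5 mM K+, and 1.79 and 2.70 reads in 60 mM K+. These ratios within a library do not depend on how the libraries are scaled. The log2(fold-change) of Ccl2 exceeded that of Ccl11 by 2.17 (1.60 to 2.75), and that of Ccl7 exceeded it by 1.86 (1.38 to 2.34).

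Ccl3, a macrophage inflammatory protein, had 1 control read and 22 depolarized reads. The ratio was 23.6-fold, with a counting interval from 3.82-fold to 974-fold. The log2(fold-change) of 4.56 (1.93 to 9.93) was the 10th highest of all genes tested. Ccl3 entered the genes tested only through its depolarized reads, so this rank is a description. Its level nevertheless remained low, at 0.125 FPKM in the control and 2.54 FPKM in the depolarized library. Because the control count was 1, the log2(fold-change) of Ccl3 could not be set apart from that of Ccl2, and the difference of Ccl2 from Ccl3 was -1.58 (-6.98 to 1.12). Ccl4, a related macrophage inflammatory protein, had 1 and 6 reads, a difference of 2.69 (-0.36 to 8.21) on the log2 scale that held 0. Ccl5, a T-cell chemoattractant, had 0 and 2 reads, both below the floor of 3 reads that a count of 0 allows, and no fold is given.

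Ccl6 and Ccl9, myeloid ligands of Ccr1, were level between the libraries. Ccl6 had 67 control and 60 depolarized reads, and Ccl9 had 41 of each. Their log2(fold-change) values were -0.06 (-0.59 to 0.47) for Ccl6 and 0.10 (-0.56 to 0.76) for Ccl9. Ccl19, the ligand of Ccr7, had 76 and 75 reads, with a log2(fold-change) of 0.08 (-0.40 to 0.56). Each of the 3 intervals held 0 and left out the fold, and with total counts the values of Ccl9 and Ccl19 turned slightly negative. Of all genes with 50 to under 200 reads, as for these 3, 5.15% lay above the fold and 6.94% below. Summed over them, 184 control reads stood beside 176 depolarized reads, a log2(fold-change) of 0.04 (-0.27 to 0.34). The Ccl19 count is uncertain, because 96.4% of the 50-base stretches of its transcript also occur in the near-identical copies Gm2023 and Gm2442. None of the other members shared such stretches with another gene, except for 1.61% of those of Ccl9.

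**Figure D2:**
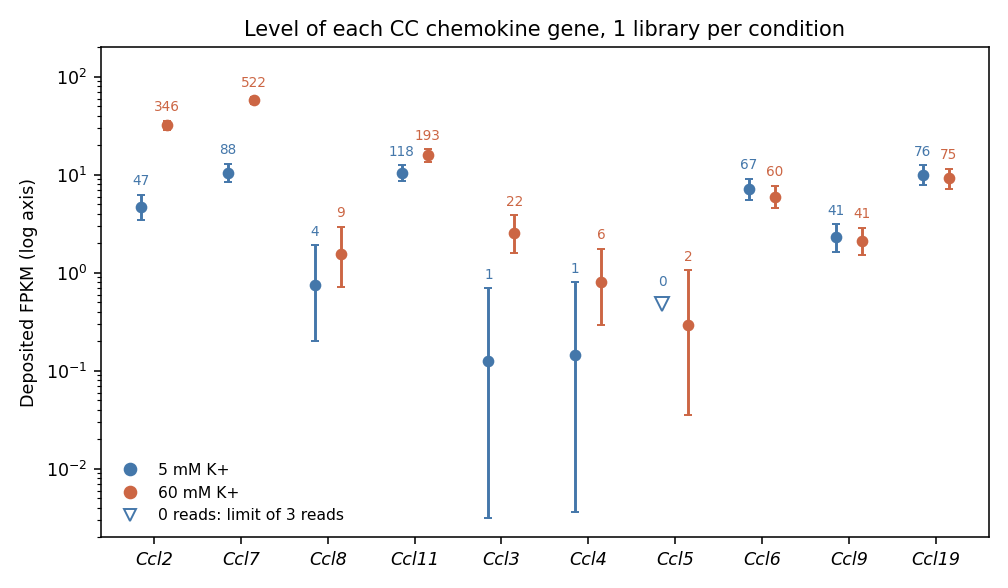
Level of each CC chemokine per transcript length, in FPKM on a log axis, in the 5 mM K+ and the 60 mM K+ library, with exact 95% Poisson intervals, read counts above the points and a triangle at the limit of 3 reads where the count was 0. Ccl7 is highest in the depolarized library, while in the control its interval overlaps those of Ccl11 and Ccl19. Ccl2 is below Ccl11 in the control and above it (15.8 FPKM) in the depolarized library.

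The order of the levels differed between the libraries. In 5 mM K+ the order by FPKM was Ccl7, Ccl11, Ccl19, Ccl6 and Ccl2, and each of these overlapped its neighbour within the counting interval. Ccl9 followed at 2.30 FPKM, below the interval of Ccl2, and Ccl8, Ccl4 and Ccl3 all lay under 1 FPKM. In 60 mM K+ the order was Ccl7, Ccl2, Ccl11 and Ccl19 (9.21 FPKM), each apart from the one above, then Ccl6 at 6.00 FPKM, which overlapped Ccl19. Ccl3 came next and was above Ccl9 (2.13 FPKM), although their intervals overlapped. Among the 14829 genes, Ccl7 stood above 50.3% by FPKM in the control and 87.1% in the depolarized library, and Ccl2 above 35.2% and 77.7%. Ccl19 stood above 49.3% and 51.3%, and Ccl6 above 42.7% and 42.6%.

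The make-up of the CC chemokine reads changed accordingly. The 10 genes together had 443 control and 1276 depolarized reads, a summed log2(fold-change) of 1.63 (1.47 to 1.79). Without Ccl2 and Ccl7 the remaining 8 genes had 308 and 408 reads, or 0.51 on that scale (0.29 to 0.73). Ccl2 and Ccl7 supplied 30.5% (26.2 to 35.0, Clopper-Pearson) of the family's reads in the control library and 68.0% (65.4 to 70.6) in the depolarized library. Ccl6, Ccl9 and Ccl19 supplied 41.5% (36.9 to 46.3) and 13.8% (11.9 to 15.8). Ccl11 accounted for 26.6% and 15.1%. Shares of reads count longer transcripts more, so they describe the libraries and not relative levels between genes. Ccl3, Ccl4, Ccl5 and Ccl8 combined held 6 of the reads (1.35%) in 5 mM K+ and 39 (3.06%) in 60 mM K+. Of the 28 pairs among the 8 genes with at least 10 reads, the interval of the difference in log2(fold-change) left out 0 in 14 pairs and held 0 in 14. These intervals were not adjusted for the number of pairs.

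**Figure D3:**
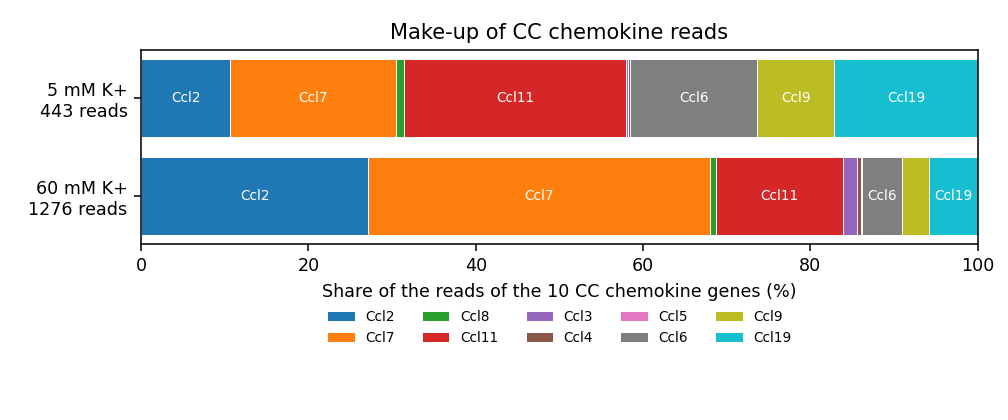
Share of the CC chemokine reads that each gene supplied, in percent of 443 reads (5 mM K+) and 1276 reads (60 mM K+). The combined share of Ccl2 and Ccl7 is 30.5% in the control and 68.0% in the depolarized library.

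In the mouse genome (build mm9, GENCODE vM1 positions), 9 of the 10 genes lay on chromosome 11 and Ccl19 (ENSMUSG00000071005) lay on chromosome 4 at 42768057 to 42770109, minus strand. The first locus spanned 81.2 kb and held, from its start, Ccl2 (ENSMUSG00000035385, chromosome 11, 81849073 to 81850955, plus strand), Ccl7 (81859214 to 81861027), Ccl11 (81871325 to 81876457), Ccl12 and Ccl8 (81928687 to 81930301), all on the plus strand. Ccl12, another monocyte chemoattractant between Ccl11 and Ccl8, had 5 and 3 reads. The second locus spanned 139 kb and held Ccl5 (83339280 to 83344020), Ccl9 (83386421 to 83392138), Ccl6 (83401384 to 83406589) and Ccl3 (83461346 to 83462857) on the minus strand, and Ccl4 (83476086 to 83478185) on the plus strand. In it, Ccl9 and Ccl6 had nearly equal reads in both libraries, and Ccl3, the next gene with 10 reads, lay past the fold. Within each locus 0 other genes had 10 reads. Genes on the opposite strand overlapped Ccl2 (Gm17268, 0 and 0 reads), Ccl6 (E230016K23Rik, 2 and 1 reads) and Ccl19 (4930578G10Rik, 4 and 9 reads), and without strand information their reads cannot be told apart from those of the chemokines. The annotation used for counting differed from GENCODE vM1, so the intervals counted may differ from these positions.

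**Figure D4:**
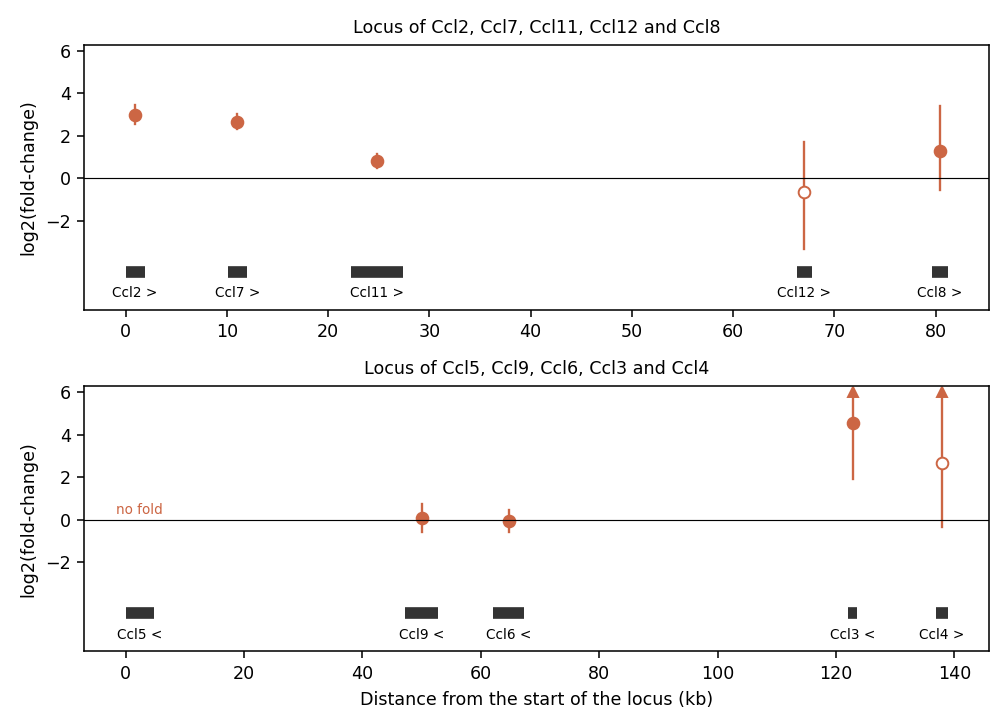
The log2(fold-change) of the genes at both CC chemokine loci against the distance from the start of the locus in kb, with gene extents as black bars and strands as arrowheads beside the names. Filled points have at least 10 reads, open points fewer, lines are exact 95% counting intervals and triangles mark intervals that run past the axis. In the second locus Ccl9 and Ccl6 lie near 0 and Ccl3 at 4.56.

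The promoters of Ccl3 and Ccl9 are shown because both lie in the second locus, the former past the fold and the latter with equal reads. They are the 250 bases before the start in RefSeq (GRCm38.p6), Ccl3 at chr11:83649379-83649628 and Ccl9 at chr11:83578637-83578886, both minus strand, with the matches in capitals.
Ccl3: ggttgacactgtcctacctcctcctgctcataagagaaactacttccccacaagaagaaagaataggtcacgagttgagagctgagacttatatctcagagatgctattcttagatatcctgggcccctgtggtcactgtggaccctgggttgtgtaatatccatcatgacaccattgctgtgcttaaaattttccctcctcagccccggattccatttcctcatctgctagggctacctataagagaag
Ccl9: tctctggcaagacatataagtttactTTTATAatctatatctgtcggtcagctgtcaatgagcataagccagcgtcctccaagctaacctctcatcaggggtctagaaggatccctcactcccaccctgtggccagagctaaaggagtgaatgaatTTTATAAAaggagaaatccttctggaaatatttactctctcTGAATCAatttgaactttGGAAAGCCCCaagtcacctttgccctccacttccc
The RefSeq table held entries for 5 of the 10 genes, Ccl3, Ccl6, Ccl8, Ccl9 and Ccl19, and for none of Ccl2, Ccl4, Ccl5, Ccl7 and Ccl11. Windows from 250 bases before to 50 bases after the start were searched on both strands. The full cyclic AMP response element TGACGTCA and its shorter form TGACG, which lies within it, were each found in 0 of 5, against 1.79% and 20.8% of all 32851 promoters. The AP-1 motif TGANTCA was found in Ccl9 (7.81% of all promoters), 53 bases before the start, and the NF-kB consensus in Ccl9 (8.46%), 35 bases before the start. The letters TATAAA were found in Ccl8, 32 bases before the start, and in Ccl9 (13.6% of all promoters). In the Ccl3 window shown, 0 of these motifs were found, while that of Ccl9 held 3 of them. Whether the motifs bear on the reads was not tested, and Ccl2 and Ccl7 could not be searched. A match is a description of the letters and not of binding.

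Other CC ligands were few. Of 13 listed, 9 were in the tables (Ccl21a, Ccl21b, Ccl21c and Ccl28 were not analysed here), 3 had at least 10 reads, 0 lay above the fold and 1 below. That gene was Ccl25, which attracts thymocytes, with 27 and 10 reads, a value of -1.33 on the log2 scale (-2.54 to -0.24). Of all genes tested, 5.54% lay above the fold and 5.86% below. With 10 to under 50 reads, as for Ccl25, these shares were 14.1% and 22.6%. Ccl27a, a ligand of Ccr10 whose transcript shares 43.3% of its 50-base stretches with copies, had 144 and 103 reads. Ccl1, Ccl20, Ccl22 and Ccl26 had 0 reads in both libraries.

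Values in parentheses after reads are log2(fold-change) estimates, some with their interval. Of 12 receptor genes for CC ligands, 3 had at least 10 reads, and 1, Ccr2, lay above the fold on 4 and 9 reads (1.27, -0.57 to 3.42). Ccr2 reached 10 reads only through the depolarized library. The shares past the fold were 5.54% above and 5.86% below over all genes tested. For genes with 10 to under 50 reads, such as Ccr2, they were 14.1% and 22.6%. Ccrl2, a receptor-like protein that holds chemoattractants at the cell surface without signalling, had 542 and 750 reads (0.57, 0.41 to 0.73). Ccr10 had 24 and 22 reads, and Ccr1l1, Ccr3 and Ccr8 had 0 in both libraries. All 4 atypical receptors, which take up chemokines without G protein signalling, had at least 10 reads. Ackr3, a scavenger of Cxcl12, had 1227 and 2384 reads (1.06, 0.96 to 1.16), and it fell within the fold with total counts. Ackr4, which takes up Ccl19, had 44 and 55 reads, while Ackr2, which takes up inflammatory CC ligands such as Ccl2, had 31 and 15 reads (-0.95, -1.94 to -0.01) and lay below the fold with total counts.

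Among chemokines of the other classes, most with enough reads were higher in the depolarized library. Of 16 listed, 9 had at least 10 reads, 7 lay above the fold and 1, Pf4 (21 and 8 reads), below, with a median log2(fold-change) of 1.87. Cxcl5 and Cxcl14 reached 10 reads only through the depolarized library. Over all genes tested, 5.54% lay above the fold and 5.86% below. The list was chosen with earlier results of these data known, so the count is a description. The neutrophil chemoattractants Cxcl1 (522 and 4212 reads, log2(fold-change) 3.11) and Cxcl2 (157 and 1155 reads, 2.98) had differences near that of Ccl2. Cxcl10, an interferon-induced ligand of Cxcr3, had 18 and 118 reads (2.81), Cxcl16 had 140 and 478 (1.87), Cxcl14 had 7 and 18 (1.46), and the endothelial chemokine Cx3cl1 had 610 and 1207 (1.09). Cxcl5 had 0 reads in the control and 53 in the depolarized library.

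Of 12 listed cytokines that induce CC chemokines, 7 had at least 10 reads, 4 of these lay above the fold (3 with total counts) and 0 below, with a median of 1.08. Of these 4, Tnf and Il1b reached 10 reads only through the depolarized library. Over all genes tested, 5.54% lay above the fold and 5.86% below. Among those with 10 to under 50 reads, as for Tnf and Il1b, these shares were 14.1% and 22.6%. Il6 had 631 and 3152 reads (log2(fold-change) 2.42), and Csf1, the growth factor of macrophages, had 1101 and 2175 (1.08). Tnf had 2 and 13 reads (2.80, 0.66 to 5.99) and Il1b 4 and 11 (1.56, -0.19 to 3.67), while Il17a and Ifng had 0 in both. All 12 genes of the NF-kB list, subunits of this transcription factor of inflammatory genes and its feedback inhibitors, had intervals above 0, with a median of 1.10. The interval lay above 0 in 25% of all genes tested and in 34.1% of those with at least 200 reads, as the 12 had. Of these, 8 lay above the fold, and 5 with total counts. The largest values were those of Bcl3 (156 and 914 reads, 2.65) and Tnfaip3, a feedback inhibitor (490 and 2749, 2.59), followed by Nfkbia (2312 and 6610, 1.62), Rel (1.54), Relb (1.46), Birc3 (1.13), Nfkbib (1.08) and Nfkbie (1.04), while Nfkbiz had 3081 and 5365 reads and stayed within the fold.

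Genes that act on chemokine transcripts or proteins after synthesis mostly stayed within the fold. So did most genes tested, with 5.54% above the fold and 5.86% below. Of 7 regulators of mRNA decay, 1 lay above it, the endonuclease Zc3h12a (447 and 1329 reads, 1.67), and the median was 0.18. Zfp36, which binds AU-rich elements, had 15179 and 19514 reads, and Zfp36l2 had 1302 and 1373. Of 14 genes for surface binding and cleavage, 13 had at least 10 reads, 1 lay above the fold and 1 below, and the median was 0.02. The heparan sulphate carrier Sdc4 had 6058 and 12091 reads (1.10, within the fold with total counts), Hspg2 had 12166 and 11506, and the protease Mmp9 had 16 and 3 (-2.31, -4.73 to -0.51).

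**Figure D5:**
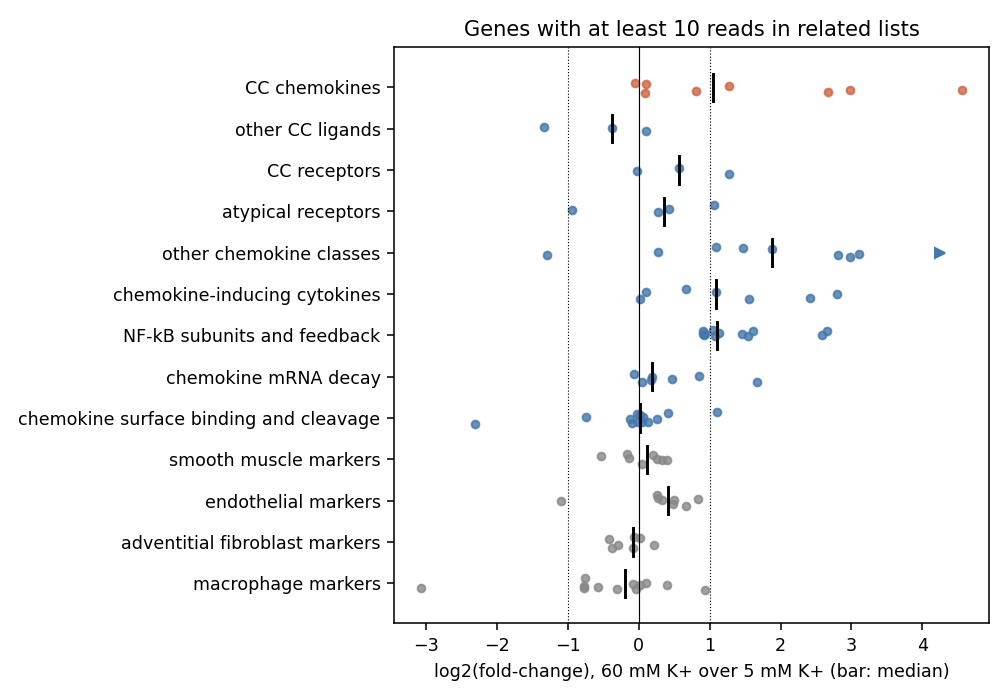
The log2(fold-change), 60 mM K+ over 5 mM K+, of each list, limited to genes that reached 10 reads, with a point for each gene, a bar for the median and dotted lines at -1 and 1. A triangle marks Cxcl5, with 0 reads in the control, at the value for a floor of 3 reads. All NF-kB genes lie above 0 and the macrophage markers have a median of -0.20.

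The tissue label was checked against cell type markers, whose part in the chemokine values was not tested. The 8 smooth muscle markers, led in reads by Acta2 and Myh11, had 415564 reads in the control and 425201 in the depolarized library, with 0 past the fold and Tagln highest at 0.40. The 8 endothelial markers had 37640 and 47911 reads (summed log2(fold-change) 0.45, Cdh5 highest at 0.83), with Kdr (168 and 73 reads, -1.10) below the fold. The 7 adventitial fibroblast markers had 49125 and 42414 (-0.11, Pi16 highest at 0.21). The 14 macrophage markers, none at 0, had 688 and 579 reads, a summed log2(fold-change) of -0.15 (-0.31 to 0.01) and Fcer1g highest at 0.93, with Itgam (9 and 1 reads) below the fold. Monocyte and neutrophil markers had 96 and 107 reads, with S100a9 and Ly6g at 0 and Ly6c2 highest at 0.37. Dendritic cell markers had 259 and 406 reads, most of them from Zbtb46 (218 and 381, highest at 0.91), with Flt3 at 0. The others had fewer reads in the depolarized library, Clec9a 33 and 23, Itgax 2 and 0, Xcr1 3 and 0 and Cd209a 3 and 2. T and NK cell markers had 8 and 1 reads, with Cd3g, Cd2, Nkg7 and Klrb1c at 0, and B cell markers 7 and 8. Mast cell markers had 22 and 29 reads (Ms4a2 at 0, Cpa3 highest at 0.39) and mesothelial markers 4 and 6 (Msln, Upk3b, Lrrn4 and Upk1b at 0). Adipocyte markers had 1407 and 1100 reads and a median of -0.90, with Plin1 (101 and 18 reads, -2.39) and Adipoq (97 and 44, -1.04) below the fold and Lep (1 and 9, 3.27) above. Lymphatic endothelial markers had 1323 and 1113 reads and a median of -0.62, with Lyve1 (318 and 135, -1.13) below the fold and Pdpn highest at 0.85. Nerve and Schwann cell markers had 1630 and 1416 reads (Tubb3 highest at 1.54 on 7 and 19 reads, Th at 0) and red blood cell genes 843 and 507 (Alas2 highest at -0.19). Pancreas genes had 131 and 417 reads, with Pnlip highest at 5.03 and Prss1 and Amy2a5 at 0. Of the 8 listed, 5 had at least 10 reads, and 4 of these lay above the fold.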

How the data were processed

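Poly(A) RNA of 2 wild-type mesenteric artery libraries was sequenced. The authors aligned reads to mm9 with TopHat2 and deposited read counts per gene and FPKM. The labels name TopHat2 2.0.12, HTSeq 0.6.1 and edgeR 3.0.8, and list mm8 and mm9 without roles. The annotation is not given in the sources used here, and 22972 of 55573 identifiers were not in GENCODE vM1. Reads per FPKM differed between libraries by 1 ratio for all genes, so the FPKM deposited by the authors follow total counts.

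The deposited counts were scaled by TMM (edgeR 4.0.16, R 4.3.3). A count of 0 was entered as 0.5 reads. Fold changes had exact Clopper-Pearson intervals and FPKM exact Poisson intervals, both at 95% (SciPy 1.17.1). Only the fold-change intervals were tested on simulated data. Those data held counting error alone, so the test could not cover spread between replicates. Pairs were compared by conditional odds ratios. The study's DEGSeq test was not run, since with 1 library per condition it compares libraries and not conditions. Alternatives were other scalings (DESeq2 1.42.0 median of ratios among them), count minimums, FPKM, call rules and fold limits. Symbols were matched by Ensembl identifier. The members and lists were chosen with earlier results of these data known. All 10 members were described, and of every other list the genes past the fold and those with the most reads. Of cell type lists, summed reads, the highest gene and genes at 0 were given. The cell type genes named as below the fold and the further dendritic cell genes were added after their values were seen.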

Additional observations from a re-analysis of the deposited data

How the results depend on the processing

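Ccl2, Ccl3 and Ccl7 stayed above the fold under every scaling, and 0 CC chemokines lay below it in any setting. The number above the fold was 4, became 2 with a minimum of 50 reads, which leaves out Ccl3 and Ccl8, and was 3 to 6 otherwise. Their median log2(fold-change) ranged from 0.46 to 1.69, with Ccl5 at a fitted value in the latter. Ccl9 and Ccl19 turned negative with total counts (-0.11 and -0.13) and with FPKM. With a pseudocount of 1 on FPKM, Ccl2 was at 2.54 and Ccl3 at 1.66, both under their counting intervals. The motif matches were in the same genes within 100 bases of the start. Over all genes, 822 lay above and 869 below. No read minimum gave 3081 and 2491, a minimum of 50 reads 412 and 211, FPKM with a pseudocount of 1 240 and 193, the nearest interval end 263 and 73, a log2 limit of 2 194 and 223, and a limit of 0.5 2196 and 2358. FPKM with a pseudocount of 0.1 gave 497 above and 1037 below. Total counts gave 601 above and 1285 below. No paired analysis was possible because there was only 1 library of each kind. Leaving out a replicate, the quasi-likelihood test and the DESeq2 test could not be fitted for that reason. Depth limits Ccl3, Ccl4, Ccl5 and Ccl8, each with fewer than 5 control reads.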
